A study of Mus musculus with 7 samples.

Results

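Transcripts of 10 genes of cytokine signaling were followed in tumors of the EMT6 mouse mammary carcinoma line: the kinases Jak1, Jak2, Jak3 and Tyk2, the transcription factors Stat3, Stat5a and Stat5b, and the feedback inhibitors Socs1, Socs3 and Cish. They were chosen by gene symbol from the 53465 genes of the table and not by a cutoff on their values. Earlier results of these data were known when these genes and the lists below were chosen. Positions are those of GRCm38, with genes as the GENCODE M21 annotation gives them. All 10 were among the 15645 genes that passed the filter on low counts and were tested.

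Bulk RNA was sequenced from 3 control tumors (EMT6-P), 3 tumors that had become resistant to antibody against PD-L1 (EMT6-PTR, written PDR in the labels) and 1 metastasis of the resistant variant. Every mouse, a female Balb/c, carried 500000 implanted EMT6 cells in its mammary fat pad, and antibody was given at 250 μg per mouse every 3 days until endpoint. EMT6-P tumors received IgG and EMT6-PTR tumors received anti-PD-L1 (clone 80), while the site of the metastasis is not stated in the labels. The samples were whole tissue, so that tumor, immune and stromal cells contributed, and a lower value from fewer cells of a type cannot be told apart from less RNA per cell. Neither the labels nor the methods say that the 3 tumors of a group came from separate mice. The study calls its replicates technical except where stated, and for the sequenced tumors it states only their number. All p-values and errors below therefore measure the spread between these samples, which may be technical.

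Janus kinases are bound to the inner side of cytokine receptors and are activated when ligand brings the receptor chains together. They phosphorylate the receptor and the STAT proteins, which pair, enter the nucleus and bind DNA. SOCS proteins and CIS, the product of Cish, are induced by STATs and dampen the same receptors, which closes a negative feedback loop. In mammary tissue Stat5 carries the prolactin signal and Stat3 acts at involution, and in tumors the IL-6 family of cytokines is a known activator of STAT3. Activation is by phosphorylation, which RNA does not measure.

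The 3 control tumors resembled each other more than the resistant tumors did, with an edgeR common dispersion of 0.0275 in EMT6-P and 0.259 in EMT6-PTR. EMT6-PTR replicate 3 stood apart, with a summed level of 7 epithelial markers of 615 counts per 1000000 counts (CPM) against 2386 to 2732 in the other 5 tumors, and of 7 fibroblast markers of 21446 CPM against 5749 to 9442. In EMT6-PTR replicate 2, all 16 interferon-stimulated genes of a list lay above the 3 EMT6-P tumors, against 33.8% of all genes tested. In that tumor 1 gene, CT010467.1, took 13.8% of the counts. The summed level of 5 muscle markers was 3323 CPM in EMT6-PTR replicate 1 and 3.52 to 584 in the other tumors. In the metastasis, 7 lung markers summed to 8632 CPM against 4.25 to 27.1 in the 6 tumors, where Sftpc, a surfactant gene of alveolar cells, was at 0 in 4 tumors and at most 0.189 CPM. Neutrophil markers summed to 3197 CPM there against 45.7 to 375, led by S100a9. Epithelial markers summed to 1354 CPM, of which Krt8 was 743 CPM, and the 7 genes differed in direction. At least 2-fold above the EMT6-PTR mean were 3 (Krt19, Epcam and Cdh1), against 9.29% of all genes. At least 2-fold below was 1 (Krt14), against 8.35%. Endothelial markers summed to 669 CPM against 97.4 to 158 in the tumors, and B and plasma cell markers to 47.9 CPM against 0.748 to 14.4. Of the 5 endothelial genes, 4 were at least 2-fold above the EMT6-PTR mean, against 9.29% of all genes. At least 2-fold below that mean was 1 (Emcn), against 8.35%, and Emcn was also below all 6 tumors. Macrophage markers summed to 2449 CPM, of which Lyz2 was 1077 CPM, and this sum was within the 1960 to 3293 of the tumors. By gene, 7 of the 9 lay below all EMT6-P tumors, against 43.2% of all genes, and 0 above them, against 39.8%. At least 2-fold below the EMT6-PTR mean were 2 (Adgre1 and Ccr2), against 8.35%. T and NK cell markers summed to 46.8 CPM against 7.66 to 30.9. The part of these cell types in the differences below was not tested.

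The promoters of Socs3 and Cish are shown because these 2 feedback genes differed most between the metastasis and the tumors. Each window runs from 250 bases before to 50 bases after the start given by RefSeq on GRCm38.p6, and capitals mark TTCNNNGAA, the palindrome that STAT proteins bind, which reads the same on both strands. The Socs3 window is chr11:117969317-117969616 on the minus strand, and the Cish window is chr9:107296409-107296708 on the plus strand.
Socs3: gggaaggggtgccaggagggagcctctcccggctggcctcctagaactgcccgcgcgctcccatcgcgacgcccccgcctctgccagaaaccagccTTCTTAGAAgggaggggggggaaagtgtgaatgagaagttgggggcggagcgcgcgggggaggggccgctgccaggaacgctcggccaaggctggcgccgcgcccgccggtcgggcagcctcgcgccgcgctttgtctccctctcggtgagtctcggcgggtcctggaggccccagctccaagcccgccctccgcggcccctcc
Cish: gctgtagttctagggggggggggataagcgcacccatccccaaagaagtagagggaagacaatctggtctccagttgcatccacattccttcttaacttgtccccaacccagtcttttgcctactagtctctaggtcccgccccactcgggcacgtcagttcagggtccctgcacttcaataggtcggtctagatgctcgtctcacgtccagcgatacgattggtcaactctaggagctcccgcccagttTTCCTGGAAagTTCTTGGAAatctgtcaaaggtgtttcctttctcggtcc
The Socs3 match TTCTTAGAA began 154 bases before the start. In Cish the matches TTCCTGGAA and TTCTTGGAA began at bases 1 and 12 counted from the start. No window of the other 8 genes held these letters, 2 start sites each being searched for Stat5a and Stat5b. Of 27025 genes with a window, 9.55% held at least 1 match, and 2 or more matches were found in 0.457% of 32851 windows. A match describes the letters of the window and not a bound site.

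No gene of the group passed the test between EMT6-PTR and EMT6-P tumors. At an adjusted p of 0.05 (edgeR quasi-likelihood, Benjamini-Hochberg), 0 of 10 were called, beside 0 of 15645 genes tested (0.0%). At an unadjusted p under 0.05 the number was again 0 of 10, against 11.4% of all genes, while DESeq2 called 281 genes of which none was among the 10. The fold change was above 0 for 7 genes and below 0 for 3, with a median log2 value of 0.15 against 0.025 over all genes. In 3 genes, Tyk2, Stat3 and Stat5a, all EMT6-PTR tumors lay above all EMT6-P tumors, which held for 9.52% of all genes, and none was lower throughout, which held for 11.8%.

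**Figure D1:**
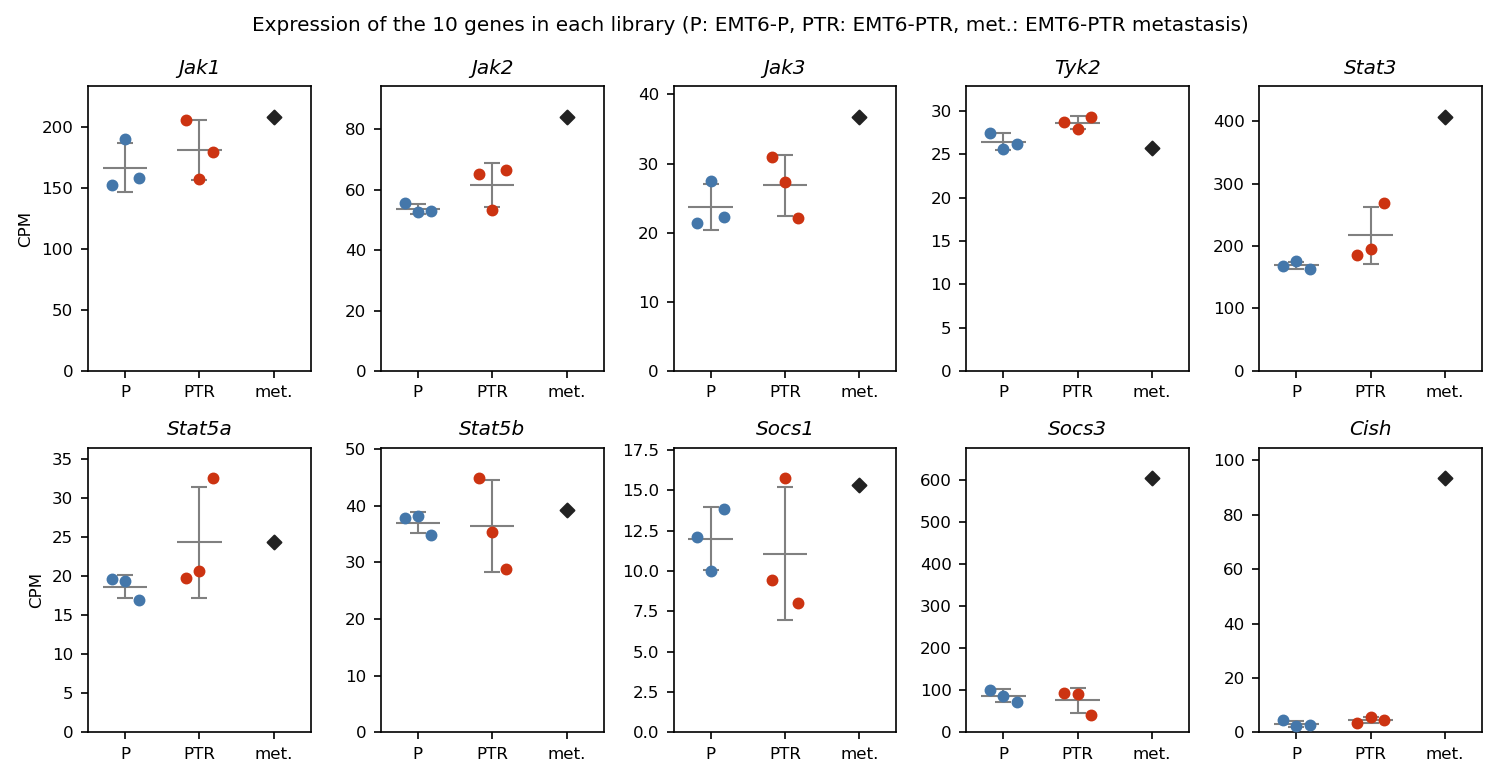
Level of each of the 10 genes in CPM, with 1 point per library, the group mean as a horizontal line and its standard deviation as a bar (n = 3), and the single metastasis as a diamond. The metastasis lies far above the 6 tumors for Socs3 and Cish and above them for Stat3, while the tumor groups overlap for 7 of 10 genes.

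Among the kinases, Jak1 (chr4:101152367-101265282, minus strand), which serves the IL-6, interferon and common gamma chain receptors, had the highest CPM. It stood at 152, 190 and 158 CPM in EMT6-P and at 206, 158 and 180 CPM in EMT6-PTR, with 209 CPM in the metastasis. The tumor groups overlapped, with a log2 fold change of 0.12 ± 0.16 (SE, n = 3 per group, edgeR adjusted p = 0.767). It was 0.015 without EMT6-PTR replicate 1 and 0.22 when EMT6-P replicate 2 was left out. The metastasis was above the highest tumor by a ratio of only 1.01.

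Jak2 (chr19:29251828-29313080, plus strand) transmits signals of growth hormone, prolactin, erythropoietin and the common beta chain cytokines. Its levels were 55.6, 52.5 and 53.1 CPM in EMT6-P against 65.4, 53.2 and 66.4 CPM in EMT6-PTR. EMT6-PTR replicate 2 fell within the control range while the other resistant tumors were above it. The log2 fold change was 0.20 ± 0.13 (SE, n = 3, edgeR adjusted p = 0.564), and the metastasis, at 84.2 CPM, was above all 6 tumors and 1.37 times the EMT6-PTR mean.

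Jak3 (chr8:71676296-71690575, plus strand), a kinase largely of lymphoid and myeloid cells, binds the common gamma chain. It measured 21.4, 27.5 and 22.3 CPM in EMT6-P, 30.9, 27.4 and 22.2 CPM in EMT6-PTR, and 36.8 CPM in the metastasis. The tumor groups overlapped (log2 fold change 0.18 ± 0.18, SE, n = 3, edgeR adjusted p = 0.701), and this value was 0.058 without EMT6-PTR replicate 1 and 0.30 in the absence of EMT6-PTR replicate 3. The gene Insl3 lies wholly within the Jak3 locus on the same strand and was given 37 to 133 estimated counts per library, so that reads of the shared stretch were divided by estimation. Relative to Ptprc, the CD45 gene of all leukocytes, the log2 ratio of Jak3 was -1.35 ± 0.26 (SD) in EMT6-P, -1.25 ± 0.61 in EMT6-PTR and -1.29 in the metastasis. This ratio did not separate the groups (two-sided exact permutation test, n = 3 per group, p = 0.9, adjusted 0.9).

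Tyk2 (chr9:21104068-21131243, minus strand), which pairs with Jak1 or Jak2 at interferon and IL-12 receptors, differed little between libraries. It measured 27.5, 25.6 and 26.2 CPM in EMT6-P and 28.7, 27.9 and 29.4 CPM in EMT6-PTR. Though the groups did not overlap, the log2 fold change was 0.12 ± 0.12 (SE, n = 3, edgeR adjusted p = 0.697), and the groups overlapped when no scaling factors were used. At 25.8 CPM, Tyk2 was the only gene of the group whose value in the metastasis lay within the EMT6-P range.

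Stat3, the main effector of IL-6 family cytokines, gave the smallest p of the 10 genes. Its levels were 169, 175 and 164 CPM in EMT6-P, 186, 196 and 269 CPM in EMT6-PTR, and 407 CPM in the metastasis. All resistant tumors were above all controls under every scaling tried, with replicate 3 the highest. The log2 fold change of 0.36 ± 0.18 (SE, n = 3) did not pass the test (edgeR adjusted p = 0.470), and without EMT6-PTR replicate 3 it was 0.17. The metastasis was 1.88 times the EMT6-PTR mean and 1.51 times the highest tumor.

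Stat5a and Stat5b are close paralogs that transmit prolactin, growth hormone and IL-2 signals, and they lie beside Stat3 on chromosome 11. Stat5a measured 19.6, 19.3 and 16.9 CPM in EMT6-P and 19.7, 20.7 and 32.5 CPM in EMT6-PTR, where replicate 3 alone was well above the control range. Its log2 fold change was 0.38 ± 0.23 (SE, n = 3, edgeR adjusted p = 0.524), and 0.12 without EMT6-PTR replicate 3. In the metastasis Stat5a was at 24.3 CPM, equal to the EMT6-PTR mean (ratio 1.00).

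Stat5b went the other way in EMT6-PTR replicate 3. It measured 37.8, 38.2 and 34.8 CPM in EMT6-P and 44.9, 35.4 and 28.8 CPM in EMT6-PTR, with 39.2 CPM in the metastasis. The log2 fold change was -0.022 ± 0.18 (SE, n = 3, edgeR adjusted p = 0.965). Stat5a and Stat5b share 608 words of 50 bases, 8.21% of those of Stat5a and 11.0% of those of Stat5b, so that reads there were divided by estimation, while no other pair of the 10 genes shares any. Stat5b lies at chr11:100780731-100850724 on the minus strand. The end of Stat3 (chr11:100885098-100939540, minus strand) overlaps the end of Stat5a (chr11:100859351-100885169, plus strand) by 72 bases.

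**Figure D2:**
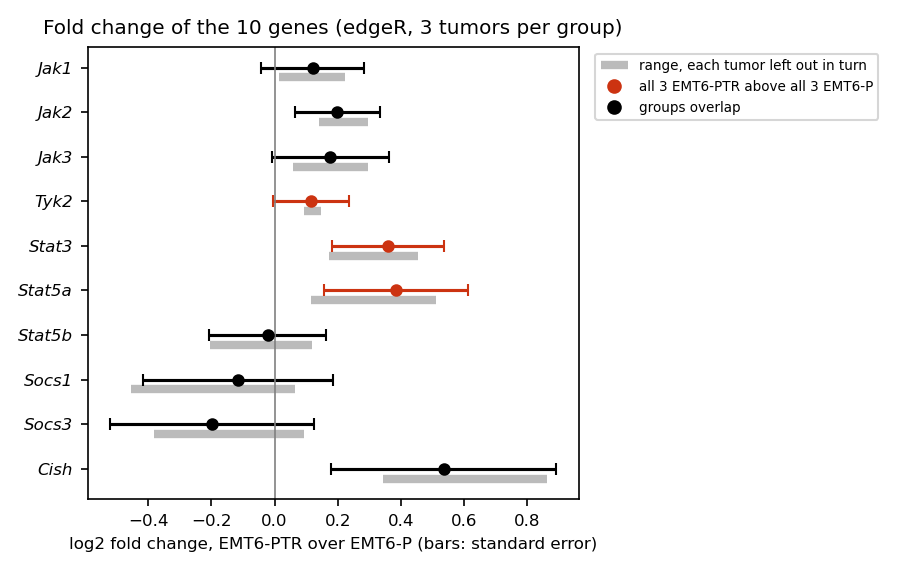
Log2 fold change of each gene in EMT6-PTR over EMT6-P tumors with its standard error (3 tumors per group, edgeR), and in gray the range when each tumor is left out in turn. Red points mark the 3 genes whose groups do not overlap, and the gray range crosses 0 for Stat5b, Socs1 and Socs3.

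Of the feedback inhibitors, Socs1 (chr16:10782240-10785536, minus strand), which blocks the kinases directly and is induced by interferon, was low and variable. It measured 12.1, 10.0 and 13.9 CPM in EMT6-P and 9.43, 15.8 and 8.05 CPM in EMT6-PTR, with 15.3 CPM in the metastasis. EMT6-PTR replicate 2 was the highest tumor and the other resistant tumors were below all controls. The log2 fold change was -0.12 ± 0.30 (SE, n = 3, edgeR adjusted p = 0.889).

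Socs3 (chr11:117966079-117970047, minus strand) binds receptors of the gp130 family together with their kinase and is a classical STAT3 target. It measured 102, 87.9 and 71.8 CPM in EMT6-P and 94.0, 92.2 and 42.1 CPM in EMT6-PTR. EMT6-PTR replicate 3 was the lowest of the 6 tumors, although its Stat3 was the highest. The log2 fold change was -0.20 ± 0.32 (SE, n = 3, edgeR adjusted p = 0.813), and 0.092 without that tumor. In the metastasis Socs3 reached 606 CPM (exact Poisson 95% interval 596 to 615, counting error only), 7.96 times the EMT6-PTR mean and 5.94 times the highest tumor.

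Cish (chr9:107296026-107302784, plus strand), best known as a STAT5 target, was the lowest of the 10 genes in the tumors. It stood at 4.48, 2.43 and 2.64 CPM in EMT6-P and at 3.58, 5.79 and 4.49 CPM in EMT6-PTR, and the groups overlapped. Its log2 fold change, 0.54 ± 0.36 (SE, n = 3), did not pass the test (edgeR adjusted p = 0.560). It was 0.34 without EMT6-PTR replicate 2 and 0.86 when EMT6-P replicate 1 was left out. In the metastasis it reached 93.5 CPM (exact Poisson 95% interval 89.8 to 97.4), 20.2 times the EMT6-PTR mean, 29.4 times the EMT6-P mean and 16.1 times the highest tumor. The antisense gene Gm17041 within the Cish locus had 43 estimated counts in the metastasis and at most 1 in each tumor.

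The metastasis is 1 library, so its difference from the tumors has no replicate check and no test. At least 2-fold above the EMT6-PTR mean were 2 of the 10 genes, Socs3 and Cish, against 9.29% of all genes tested, and 0 were at least 2-fold below, against 8.35%. Ranked by the log2 ratio to EMT6-PTR (0.5 CPM added), Cish was number 88 and Socs3 number 251 of 15645. Above all 6 tumors were 6 of 10 genes, against 20.9% of all genes. The median log2 ratio of the 10 was 0.45 against -0.063 over all genes.

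The feedback genes were also set against the transcription factors that induce them, within each library. The log2 ratio of Socs3 to Stat3 was -0.97 ± 0.23 (SD) in EMT6-P and -1.58 ± 0.95 in EMT6-PTR, where replicate 3 stood at -2.67 and the other tumors at -0.98 and -1.08. The difference of -0.61 did not pass a two-sided exact permutation test (n = 3 per group, p = 0.5, Benjamini-Hochberg adjusted p = 0.667 over 4 ratios), a design that cannot go below 0.1. In the metastasis the ratio was 0.57, the only library in which Socs3 had more counts than Stat3.

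For Cish relative to Stat5a and Stat5b summed, the log2 ratio was -4.14 ± 0.44 (SD) in EMT6-P and -3.72 ± 0.44 in EMT6-PTR (two-sided exact permutation test, n = 3 per group, p = 0.3, adjusted 0.667). It was 0.56 in the metastasis, where the summed Stat5 genes lay within the range of the tumors.

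**Figure D3:**
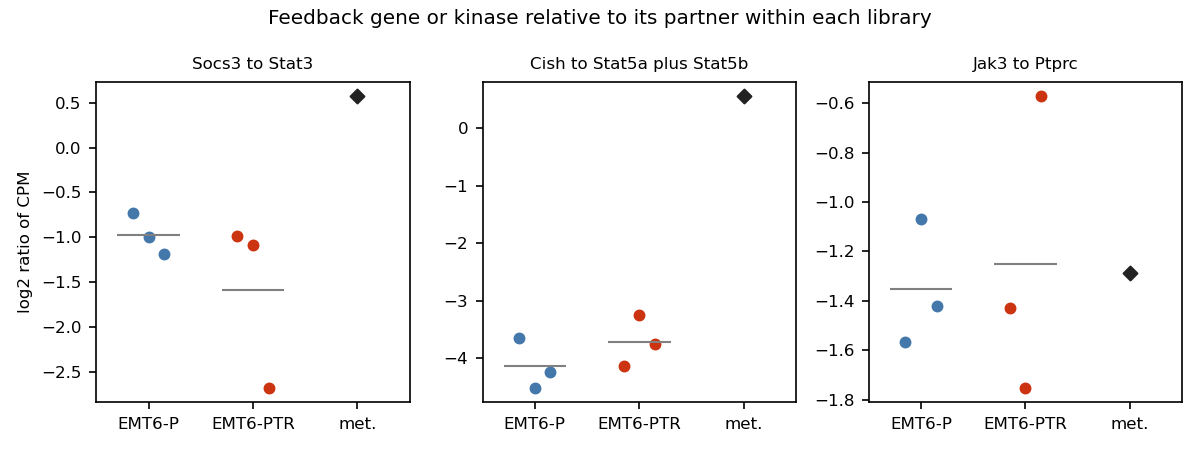
Log2 ratio of CPM within each library, for Socs3 to Stat3, Cish to the sum of Stat5a and Stat5b and Jak3 to Ptprc, with group means as lines and the metastasis as a diamond. The tumor groups overlap in all 3 panels, and the metastasis lies above every tumor in the panels of Socs3 and Cish and within the tumors in that of Jak3.

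On a scale of CPM per kilobase of exon, which allows genes to be compared, the order in EMT6-P began with Socs3 at 30.2 ± 5.23 (SD, n = 3) and Jak1 at 23.1 ± 2.81, whose ranges overlapped. Stat3 followed at 17.8 ± 0.624, Jak2 at 10.7 ± 0.330 and Stat5b at 6.67 ± 0.334, each apart from its neighbors. Jak3 at 4.44 ± 0.617, Socs1 at 4.13 ± 0.666 and Tyk2 at 3.85 ± 0.142 overlapped in sequence, and Stat5a at 2.61 ± 0.206 and Cish at 0.496 ± 0.176 were lowest. In the metastasis Socs3 stood at 209.5, Stat3 at 42.8 and Jak1 at 28.9 CPM per kilobase. Cish, at rank 10 in both tumor groups, stood at rank 5 there with 14.6.

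**Figure D4:**
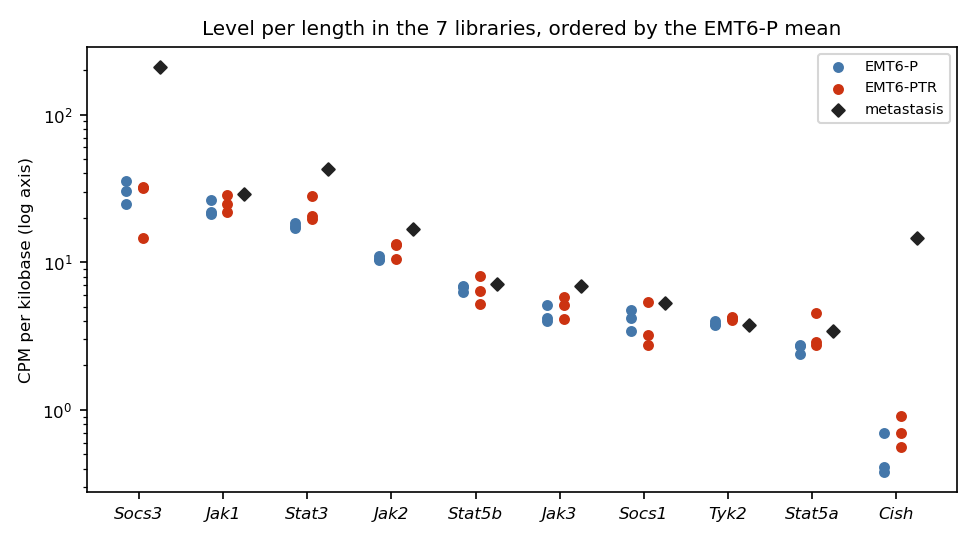
CPM per kilobase of merged exons on a log axis for the 10 genes in all 7 libraries, ordered by the EMT6-P mean. The order spans from Socs3 to Cish in the tumors, and the metastasis departs most from it for Cish, Socs3 and Stat3.

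Upstream of the kinases, the gp130 family of receptors had fold changes above 0 in all 8 tested genes, and none passed the test. Of these, 3 were at an unadjusted p under 0.05, against 11.4% of all genes, and 4 had resistant tumors above all controls, against 9.52%. Il6st, which encodes gp130 itself, measured 72.9, 63.6 and 79.9 CPM in EMT6-P and 98.6, 114 and 118 CPM in EMT6-PTR (log2 fold change 0.61 ± 0.15, edgeR adjusted p = 0.421). Lepr, the leptin receptor, was low, at 0.975, 1.26 and 0.849 CPM in EMT6-P and 2.79, 1.45 and 5.70 CPM in EMT6-PTR. Its log2 fold change was 1.69 ± 0.55 (adjusted p = 0.424, edgeR), and that of Osmr, the oncostatin M receptor, was 0.41 ± 0.16 (adjusted p = 0.433, edgeR). In the metastasis 4 of the 8 were at least 2-fold above the EMT6-PTR mean, against 9.29% of all genes, with Il6st at 267 CPM and Osmr at 193 CPM. Csf3r, the G-CSF receptor of neutrophils, chosen after its values were seen, was at 208 CPM there against 9.67 to 19.1 in the tumors.

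Of the cytokine ligands, 13 of 23 were tested, and 7 had a fold change above 0 and 6 below. Il6 measured 1.32, 0.934 and 1.08 CPM in EMT6-P, 2.62, 2.78 and 0.274 CPM in EMT6-PTR, and 95.2 CPM in the metastasis. More Il6 than in every control was found in 2 resistant tumors and less in 1, and the difference did not pass the test (log2 fold change 0.76 ± 0.77, SE, n = 3, edgeR adjusted p = 0.693). The study chose Il6, and Lcn2 below, for a secretory signature in part from these tumors. Its preliminary list for that signature, also drawn in part from these tumors, held Lepr, Ghr, Igf1 and Saa3 among others. In the metastasis 6 of the 13 ligands were at least 2-fold above the EMT6-PTR mean (9.29% of all genes), among them Osm at 119 CPM against 1.95 to 7.55 in the tumors, named after its values were seen.

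Receptors of the other branches did not pass the test either. Of 7 tested genes of the common gamma chain family, which signal through Jak1 and Jak3, 3 had a fold change above 0. Il2rb, the beta chain of the IL-2 receptor, was the only one at an unadjusted p under 0.05 (log2 fold change 1.27 ± 0.48, edgeR adjusted p = 0.432). Among 7 tested receptors of the Jak2 branch, the growth hormone receptor Ghr was at 26.2 to 35.9 CPM in EMT6-P and at 33.9, 68.6 and 339 CPM in EMT6-PTR (log2 fold change 2.29 ± 0.83, edgeR adjusted p = 0.427). Of 8 tested interferon, IL-10 and IL-12 family receptors, 0 reached an unadjusted p under 0.05.

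Downstream, 19 of 20 textbook STAT3 targets were tested in EMT6-PTR against EMT6-P, 7 with a fold change above 0 and 12 below, and 0 with an unadjusted p under 0.05. The tumors differed in this list: 14 of 19 targets in EMT6-PTR replicate 3 lay below all controls, against 42.7% of all genes. In replicate 1 the number was 4 of 19, against 32.5% of all genes, and in replicate 2 it was 3 of 19, against 38.1%. Replicate 3 thus held the highest Stat3 of the 6 tumors with low levels of most of the targets, and it was also the tumor with low epithelial and high fibroblast markers. Cebpd, a transcription factor of the acute phase response, was an exception in that tumor, at 53.6 CPM against 16.4 to 20.3 in the others.

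In the metastasis 13 of the 19 STAT3 targets were at least 2-fold above the EMT6-PTR mean, against 9.29% of all genes, and 0 were 2-fold below, against 8.35%. Their median log2 ratio was 1.52. Saa3, an acute phase gene, was at 335 CPM against 5.11 to 33.1 in the tumors, and Lcn2, an iron-binding protein secreted by epithelium and neutrophils, was at 1111 CPM against 17.5 to 382. Pim1, a survival kinase, was at 254 CPM, 7.03 times the EMT6-PTR mean. Myc and Ccnd1, growth genes of the same list, were within the range of the tumors at 82.6 and 187 CPM; these last 3 genes were named after their values were seen. Most neutrophil and endothelial markers, and the summed lung markers, were high in the same library. The part of those cells in these values was not tested.

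Of 12 tested STAT5 targets, 4 of which are also on the STAT3 list, 4 had a fold change above 0 and 8 below. Igf1 measured 7.70, 7.80 and 12.6 CPM in EMT6-P and 11.0, 58.6 and 76.1 CPM in EMT6-PTR (log2 fold change 2.37 ± 0.67, edgeR adjusted p = 0.421). In the metastasis 5 of 12 were at least 2-fold above the EMT6-PTR mean, beside 9.29% of all genes, and 1 was at least 2-fold below, beside 8.35%. Igf1 was at 7.35 CPM there, below all 6 tumors, so that Cish and Igf1 differed in direction in this library.

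**Figure D5:**
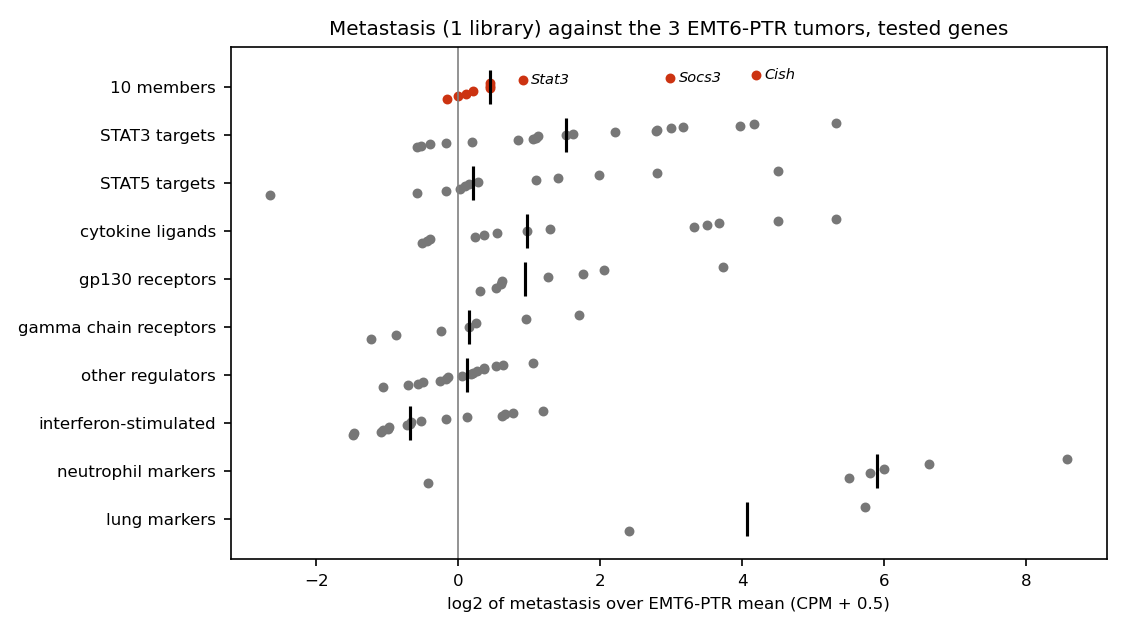
Log2 ratio of the metastasis to the EMT6-PTR mean (0.5 CPM added) for the tested genes of each list, with 1 point per gene and the list median as a black line. Cish, Socs3 and Stat3 are labelled among the 10 genes, whose median is 0.45, and the median of the STAT3 targets is 1.52.

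The remaining SOCS genes did not pass the test either. Of these 5, Socs2, a regulator of growth hormone signaling, measured 7.80 to 10.1 CPM in EMT6-P and 7.55, 8.13 and 28.0 CPM in EMT6-PTR. Socs2 reached 58.9 CPM in the metastasis, 4.05 times the EMT6-PTR mean, whereas Socs4, Socs6 and Socs7 were below all 6 tumors there. In that library 3 of the 5 lay below all EMT6-P tumors, against 43.2% of all genes, and 1 above them, against 39.8%. None of 16 phosphatases, PIAS proteins, ubiquitin ligases and adaptors of the pathway had an unadjusted p under 0.05, and 9 had a fold change above 0. Of 16 interferon-stimulated genes 13 had a fold change above 0 and 0 passed an unadjusted p of 0.05. The resistant tumors differed: 16 lay above all EMT6-P tumors in replicate 2 (33.8% of all genes), 0 in replicate 1 (32.6%) and 3 in replicate 3 (39.8%). Below all EMT6-P tumors were 3 in replicate 1 (32.5%), 0 in replicate 2 (38.1%) and 8 in replicate 3 (42.7%). In the metastasis 1 was at least 2-fold above (9.29% of all genes) and 4 at least 2-fold below the EMT6-PTR mean (8.35%).

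As a description over the 7 libraries, the genes whose log2 CPM followed Socs3 most closely were Il4ra (Pearson r = 0.996), Plek (0.996) and Serpina3i (0.994), and over the 6 tumors alone r was 0.981, 0.973 and 0.961. The genes of this comparison were chosen over libraries that include the 6 tumors. Values over the tumors alone are therefore no separate check. Il4ra, the IL-4 receptor chain, ranged from 81.3 to 126 CPM in the tumors and was at 335 CPM in the metastasis. For Cish the closest were Fbxl5 (0.997), Plxna2 (0.991) and Rapgef5 (0.990), with 0.941, 0.830 and 0.839 over the tumors. For Jak3 they were Syne1 (0.977), Mical1 (0.963) and Pcdhga4 (0.959), with 0.966, 0.922 and 0.963 over the tumors. For Socs3, Cish and Jak3 alike, the metastasis was the highest library for each of the genes named.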

How the data were processed

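Per the methods and the submitters' processing notes, the authors made stranded polyadenylated libraries, checked reads with FastQC 0.11.5, aligned them with STAR 2.6.0a to GRCm38 with GENCODE M16, and obtained the deposited values, RSEM 1.3.1 estimated counts per gene, which are not normalized. RSEM divides reads that fit several genes by estimation. Library totals were 20430110 to 25213472 counts, and a gene at 0 could hold up to 3 counts (0.117 to 0.167 CPM), by counting error only. Symbols were matched for 53274 of 53465 identifiers (GENCODE M21).

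Estimated counts were rounded. The 3 EMT6-PTR and 3 EMT6-P tumors were compared with edgeR 4.0.16 (filterByExpr, upper-quartile factors, quasi-likelihood test, Benjamini-Hochberg, threshold 0.05) under R 4.3.3, tested on simulated data. The standard error is the size of the log2 fold change divided by the square root of F. CPM are on 1 upper-quartile scale for all 7 libraries. Ratios within libraries were compared by exact permutation over the 6 tumors, with p adjusted over 4 ratios, 1 of which is not reported here. The metastasis, a single library, was not tested. Alternatives included limma 3.58.1, DESeq2 1.42.0, other scalings and filters, and leaving out each tumor.

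Genes and lists were chosen with earlier results of these data known. Named genes were all 10 members, the up to 3 genes per list whose unadjusted p was smallest, Socs2, Il6 and the 3 genes closest to Socs3, Cish and Jak3. Any other gene was named after its values were seen.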

Additional observations from a re-analysis of the deposited data

How the results depend on the processing

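None of the 10 genes was called in any of the 15 alternative fits, and the smallest adjusted p among these was 0.276, for Stat3. Over all genes DESeq2 called 281 (138 higher, 143 lower) where edgeR and the other fits called 0. The cause was not tested. Leaving out single tumors moved the log2 fold change of Stat5b between -0.20 and 0.12, that of Socs1 between -0.45 and 0.065 and that of Socs3 between -0.38 and 0.092. All 3 turned positive without EMT6-PTR replicate 3 (0.12, 0.065 and 0.092), and Stat5b also without EMT6-P replicate 2 (0.00039). The other 7 genes kept their direction in all 15 alternatives. The number of genes whose groups did not overlap was 1 (Stat3) with no scaling factors and 3 to 5 with a tumor left out, with 5 when either EMT6-P replicate 1 or EMT6-PTR replicate 2 was left out. The log2 ratio of Jak3 to Ptprc differed by -0.24 to 0.35, turning negative when EMT6-PTR replicate 3 (-0.24) or EMT6-P replicate 1 (-0.0070) was absent. By the longest transcript, Tyk2 took rank 7, Stat5a rank 8 and Socs1 rank 9 in level per length in EMT6-P. In EMT6-PTR, Jak1, Stat3 and Socs3 then took ranks 1, 2 and 3, where merged exons put Socs3 first. Stat5a took rank 7 and Tyk2 rank 8 in that group. In the metastasis Cish took rank 4 by the longest transcript. Deviations from the group mean correlated at 0.26, 0.25 and 0.038 between same-numbered tumors and at -0.29 to 0.098 between differently numbered ones. The labels do not say that the numbers pair the samples, and the main fit had no replicate block. Whether same-numbered samples shared a batch was not tested. With a replicate block 0 genes were called, and 1268 had an unadjusted p under 0.05 against 1786 without it. The metastasis has no replicate, and its values carry counting error only.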
